A study of Homo sapiens with 4 samples.

Results

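The genes described here are 42 genes of interferon signalling and viral RNA sensing, found in the gene table by their symbols. They are 42 of its 57905 rows, and each symbol matched a single row. Messenger RNA was sequenced from cells that the labels give as MG63, an established line of human osteosarcoma, a cancer of bone. KLF11 siRNA, which targets the zinc finger transcription factor KLF11, was transfected into 2 samples and a control siRNA into 2 others, and RNA was taken after 48 hours. The cells of every library thus carried a transfected short RNA duplex, and no untransfected cells are in the comparison. The series' title connects low KLF11 with a stem cell-like state of sarcoma cells and with the activity of YAP.

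Interferons are cytokines that cells release when they detect viral nucleic acid. Double-stranded or otherwise foreign RNA in the cytosol is bound by the helicases RIG-I (gene DDX58) and MDA5 (IFIH1), which signal through the mitochondrial protein MAVS to the factors IRF3 and IRF7 and so to the interferon genes. Interferon bound to its receptor acts through JAK1 and TYK2, and a complex that holds STAT2 and IRF9 then binds interferon-stimulated response elements, short DNA motifs in the promoters of many genes whose products block viral entry, translation and replication.

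Levels are FPKM, fragments per kilobase of transcript scaled to the mapped fragments of its library, so levels of different genes can be compared per length. They are listed in the order replicate 1, replicate 2 of each group. The deposited table holds no counts, so the depth of each library is unknown. Genes with a mean of at least 1 FPKM over the 4 libraries were tested with limma on log2(FPKM + 1), a scale that understates the change of low genes, and adjusted p-values are Benjamini-Hochberg values over all 15320 genes tested. A gene is said to have risen or fallen where that value was under 0.05. The labels do not say that replicates were separate cultures, and the p-values then cover no more than the spread among these 4 libraries, which may be technical.

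KLF11 was at 5.49 and 6.74 FPKM in the KLF11 siRNA libraries, against 12.3 and 12.4 FPKM in the control siRNA libraries (log2 change -0.92, SE 0.14, adjusted p = 0.00951, limma). Of marker genes for bone and mesenchyme, SPARC was at 716 and 772 FPKM in KLF11 siRNA libraries and 657 and 637 FPKM in control siRNA libraries. The bone enzyme gene ALPL ran from 79.2 to 106 FPKM and the collagen gene COL1A2 from 115 to 136 FPKM over the 4 libraries. The bone factors RUNX2 and SP7 did not exceed 0.65 and 0.04 FPKM in any library, while the pluripotency factor POU5F1 was at 1364 and 1068 FPKM in KLF11 siRNA and 186 and 177 FPKM in control siRNA libraries. The endoderm gene CER1 was at 958 and 2574 FPKM with KLF11 siRNA and 4430.3 and 4406 FPKM with control siRNA. The osteoblast marker BGLAP did not exceed 1.39 FPKM in any library. With control siRNA the mesenchymal marker CDH11 was at 1.44 and 1.20 FPKM, the epithelial marker EPCAM at 346 and 352 FPKM and the endoderm factor SOX17 at 133 and 131 FPKM. Some of the bone and mesenchymal markers were thus abundant in every library, while others were low. RUNX2, SP7, BGLAP, POU5F1, CER1, EPCAM and SOX17 go against an osteosarcoma label. Leukocyte markers were at or under 0.8 FPKM in every library except NCAM1, and CD3E and LILRA4 were listed at 0.

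In the KLF11 siRNA libraries 9 interferon and sensing genes fell and 2 rose, and the falls included the sensor RIG-I, its adaptor MAVS, and STAT2 and IRF9, which carry the interferon signal to the nucleus. The largest falls were those of EPSTI1, an interferon-induced gene, and BST2, which encodes the virion-tethering protein tetherin, at 19.2-fold and 12.8-fold lower mean FPKM. The genes that fell were DDX58, MAVS, STAT2, IRF9, IFITM3, BST2, HERC6, IFI35 and EPSTI1, and those that rose were IFIT3 and IFITM2. The other 19 tested genes did not pass, and 12 lay under the filter. In bulk RNA, fewer cells that express a gene and less of its RNA per cell cannot be told apart.

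Of the 30 genes tested, 30% fell and 6.67% rose, against 21.7% and 13.5% of all 15320 genes. The median log2 change was -0.22 over the 30 and -0.11 over all tested genes, and since the list was chosen with earlier results known, no test of the list was made. With median-of-ratios scaling the median of all genes was 0.0045 and the split of all genes 2757 higher and 2605 lower, or 18% and 17%, in place of 2071 higher and 3329 lower. The interferon and sensing genes gave 2 higher and 9 lower under it. With TPM scaling they gave 2 higher and 12 lower, or 6.67% and 40%, against 11.9% and 24.1% of all genes. Both KLF11 siRNA libraries lay below both control siRNA libraries for 17 of the 30 genes, against 44.5% of all tested genes, and above them for 8, against 28.9%. A fall of at least 1 log2 unit was called for 4 of the 30, against 8.26% of all genes, and a rise of that size for 1, against 4.67%. That rise was IFIT3, which reached the filter only through the KLF11 siRNA libraries. Without the filter on low values, which put 34232 genes under 1 adjustment, MAVS, IRF9, IFITM2, IFITM3, IFI35 and EPSTI1 lost their calls. With either control siRNA library left out limma called 0 genes in the whole table. Without control siRNA replicate 1 the median log2 change was -0.31 over the 30 genes and -0.088 over all tested genes. Without control siRNA replicate 2 these medians were -0.23 and -0.13.

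**Figure D1:**
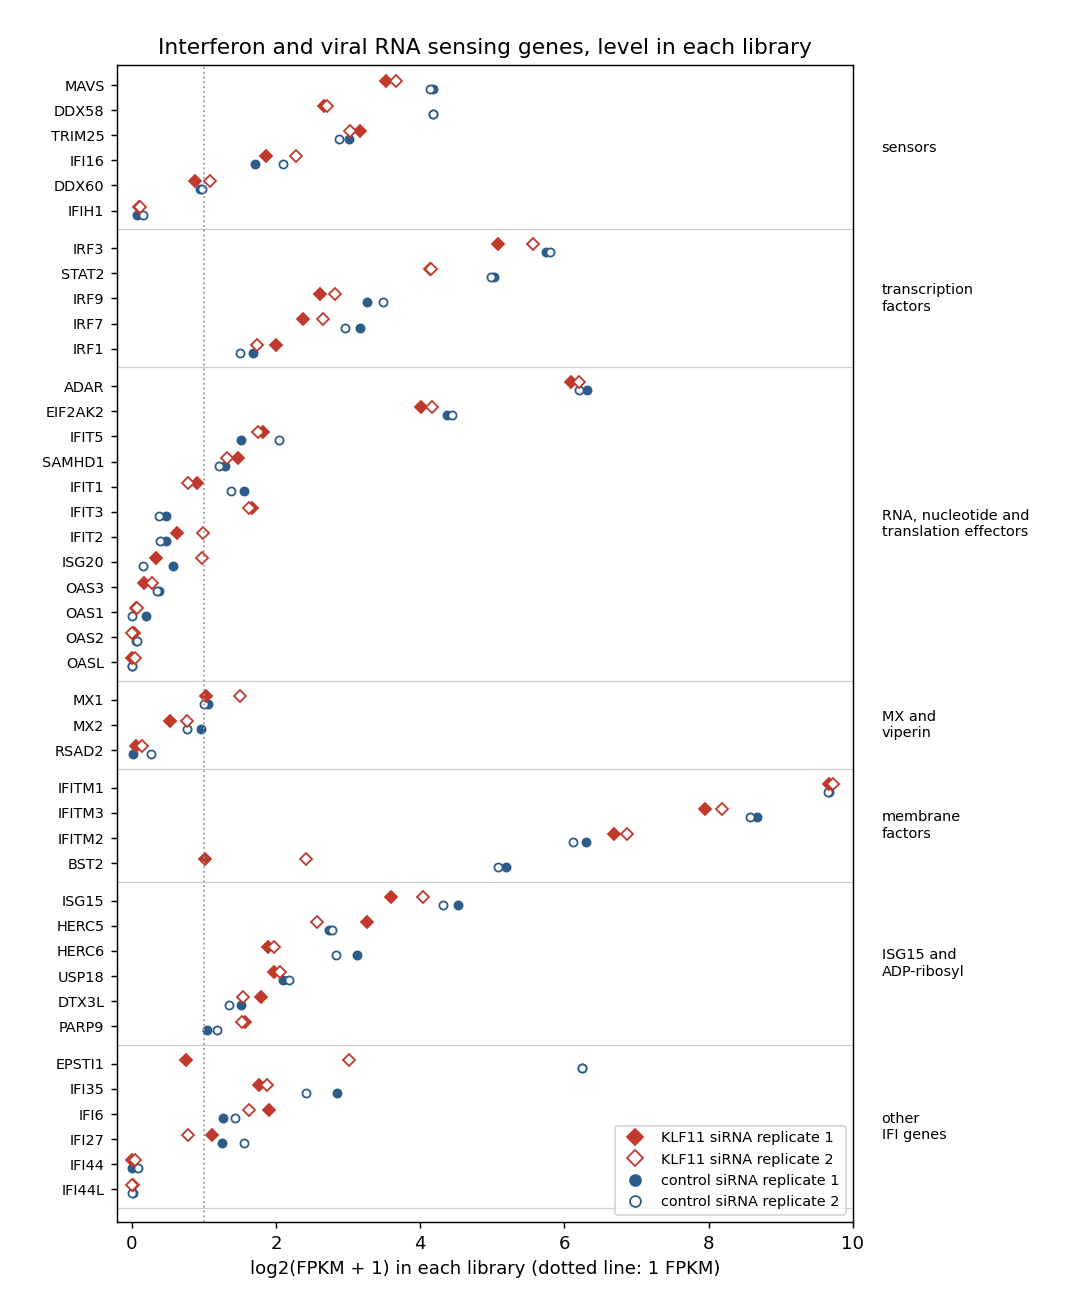
Level of each of the 42 genes in each library, as log2(FPKM + 1), in groups by role. Diamonds are KLF11 siRNA libraries and circles control siRNA libraries, filled for replicate 1 and open for replicate 2. IFITM1 lies highest, at 811 and 844 FPKM with KLF11 siRNA and 812 and 808 FPKM with control siRNA, and EPSTI1 and BST2 show the widest gaps between the groups.

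Promoter sequence is shown for 6 genes because these hold the largest falls (EPSTI1, BST2 and DDX58), the largest rise (IFIT3) and a pair of neighbours of which IFITM3 fell and IFITM1 was not called. Each window runs from 250 bases before to 50 bases after the RefSeq transcription start and is written 5′ to 3′ on the gene's strand. The coordinates are those of GRCh38.p14, not of hg19, on which the gene table rests. Capitals mark the core of the interferon-stimulated response element, taken as GAAA, any 2 bases and GAAA, or the reverse complement of that, except in DDX58, where no such core was found and capitals mark a GC box, GGGCGG read on the other strand.
EPSTI1, chr13:42992192-42992491, minus strand: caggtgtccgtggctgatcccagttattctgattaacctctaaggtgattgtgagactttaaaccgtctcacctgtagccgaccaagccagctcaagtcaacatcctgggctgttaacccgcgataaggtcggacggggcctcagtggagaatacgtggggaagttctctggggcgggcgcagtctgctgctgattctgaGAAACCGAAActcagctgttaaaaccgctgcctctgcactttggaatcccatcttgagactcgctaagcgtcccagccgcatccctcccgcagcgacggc
BST2, chr19:17405581-17405880, minus strand: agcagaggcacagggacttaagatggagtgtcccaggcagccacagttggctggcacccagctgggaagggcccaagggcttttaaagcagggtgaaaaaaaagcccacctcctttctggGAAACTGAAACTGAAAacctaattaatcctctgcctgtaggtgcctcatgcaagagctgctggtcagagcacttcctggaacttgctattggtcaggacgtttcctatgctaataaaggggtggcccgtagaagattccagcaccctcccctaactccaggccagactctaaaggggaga
IFITM3, chr11:320811-321110, minus strand: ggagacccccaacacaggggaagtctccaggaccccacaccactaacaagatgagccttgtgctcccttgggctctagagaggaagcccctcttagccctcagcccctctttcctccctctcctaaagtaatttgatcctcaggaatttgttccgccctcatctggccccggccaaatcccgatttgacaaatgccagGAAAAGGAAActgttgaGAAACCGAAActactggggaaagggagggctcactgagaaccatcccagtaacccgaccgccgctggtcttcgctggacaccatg
IFITM1, chr11:313790-314089, plus strand: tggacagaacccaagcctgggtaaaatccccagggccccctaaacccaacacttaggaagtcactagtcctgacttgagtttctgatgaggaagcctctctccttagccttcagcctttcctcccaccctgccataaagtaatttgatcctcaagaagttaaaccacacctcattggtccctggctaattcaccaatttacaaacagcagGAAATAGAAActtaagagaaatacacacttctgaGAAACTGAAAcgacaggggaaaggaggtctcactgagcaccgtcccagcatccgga
IFIT3, chr10:89327747-89328046, plus strand: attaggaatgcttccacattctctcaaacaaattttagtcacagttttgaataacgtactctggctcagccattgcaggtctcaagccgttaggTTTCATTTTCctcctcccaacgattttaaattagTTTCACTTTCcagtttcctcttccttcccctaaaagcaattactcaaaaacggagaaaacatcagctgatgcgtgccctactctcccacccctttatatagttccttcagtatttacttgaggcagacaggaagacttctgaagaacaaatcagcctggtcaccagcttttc
DDX58 (RIGI in RefSeq), chr9:32526147-32526446, minus strand: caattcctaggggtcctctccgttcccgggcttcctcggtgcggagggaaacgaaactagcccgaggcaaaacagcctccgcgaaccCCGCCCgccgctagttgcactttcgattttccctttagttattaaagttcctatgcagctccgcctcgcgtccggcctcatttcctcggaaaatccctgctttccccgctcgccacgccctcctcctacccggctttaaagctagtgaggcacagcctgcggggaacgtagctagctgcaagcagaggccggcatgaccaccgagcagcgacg

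The EPSTI1 match began 50 bases before the start. BST2 had a pair of overlapping matches, 130 and 124 bases before the start, IFITM3 matches at 52 and 35 bases and IFITM1 at 40 and 6 bases. In IFIT3 the matches lay on the other strand at 156 and 122 bases before the start shown, and a second RefSeq start of the gene also had 2 matches. The IFITM1 and IFITM3 windows thus both hold a pair of cores close to the start, and a fall was called for IFITM3 alone of the pair.

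RefSeq windows were found for 34 of the 42 genes. The response element core, searched on both strands, stood in at least 1 window of 22 of the 34, that is 64.7%, against 4.38% of 27305 genes in the RefSeq table. Of the 9 genes that fell 3 held it (EPSTI1, BST2 and IFITM3), against 11 of the 16 that did not pass and 7 of the 8 under the filter, and it stood in the window of IFIT3, which rose. The genes that fell and lacked it in this window were DDX58, MAVS, STAT2, IRF9, HERC6 and IFI35. The gamma-activated site TTCNNNGAA, a motif of genes induced by interferon gamma, was found for 10 of 34, or 29.4%, against 9.38% of all genes. It was found for 4 of the 9 that fell, 4 of the 16 that did not pass, 2 of the 8 under the filter and 0 of 1 that rose. Some of its matches, as in BST2 and EPSTI1, overlap the response element core. The GC box GGGCGG, a motif of the kind that SP and KLF factors bind, stood in the windows of 21 of 34, or 61.8%, against 48.3% of all genes. These were 8 of the 9 genes that fell, 9 of the 16 that did not pass, 4 of the 8 under the filter and 0 of 1 that rose. These matches describe letters in a window and were not tested as binding sites. The shares of all genes cover every gene with a window, expressed here or not. No share was computed for all tested genes or for all genes that fell. The split of matches by call is therefore not read as a trait of these genes.

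Among the sensors and their partners 2 of 4 tested genes fell and 0 rose, beside 21.7% and 13.5% of all genes. DDX58, the gene of RIG-I, was at 5.35 and 5.53 FPKM with KLF11 siRNA and at 17.1 and 17.1 FPKM with control siRNA. Both KLF11 siRNA libraries were far below both controls and close to each other. The mean was 5.44 ± 0.127 FPKM against 17.1 ± 0.00707 FPKM (SD, n = 2 each), 3.15-fold lower, with a log2 change of -1.49 (SE 0.11, adjusted p = 0.00287, limma). MAVS, through which RIG-I and MDA5 signal, was at 10.5 and 11.7 FPKM with KLF11 siRNA and at 17.1 and 16.6 FPKM with control siRNA, with no overlap of the groups (log2 change -0.56, SE 0.11, adjusted p = 0.0184, limma). No rise or fall was called for TRIM25, a ubiquitin ligase that acts on RIG-I, at 7.94 and 7.13 FPKM against 7.11 and 6.36 FPKM in control siRNA libraries (adjusted p = 0.449, limma). IFI16, a sensor of DNA, overlapped between the groups, at 2.64 and 3.83 FPKM with KLF11 siRNA and 2.27 and 3.30 FPKM with control siRNA (adjusted p = 0.618, limma). IFIH1, the gene of the other cytosolic RNA helicase sensor, stayed at or under 0.11 FPKM in every library, and DDX60, a helicase related to these sensors, ran from 0.84 to 1.13 FPKM. In these libraries the measured level of RIG-I message was thus far above that of MDA5 message in both groups.

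Of the 5 transcription factors 2 fell and 0 rose, again beside 21.7% and 13.5% of all genes. STAT2, a subunit of the interferon-activated complex, was at 16.6 and 16.8 FPKM with KLF11 siRNA and at 31.5 and 30.7 FPKM with control siRNA. The replicates of each group lay close together and the groups far apart, at 16.7 ± 0.156 FPKM against 31.1 ± 0.594 FPKM (SD, n = 2 each), 1.86-fold lower (log2 change -0.86, SE 0.091, adjusted p = 0.00489, limma). IRF9, the DNA-binding part of the same complex, was at 5.13 and 6.07 FPKM with KLF11 siRNA and at 8.58 and 10.2 FPKM with control siRNA (log2 change -0.65, SE 0.15, adjusted p = 0.0275, limma). That call was lost without KLF11 siRNA replicate 1 (adjusted p = 0.0729, limma) and with quantile normalization (adjusted p = 0.0554, limma). In the GENCODE v29 transcripts 43.2% of the 50-base words of IRF9 also occur in AL136295.5, which the table lists at 0.55 and 0.61 FPKM with KLF11 siRNA and 0.83 and 0.75 FPKM with control siRNA. The level of IRF9 is uncertain to the extent that reads were split between them.

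IRF3, which is present before infection and is switched on by phosphorylation, was at 33.0 and 46.1 FPKM with KLF11 siRNA and at 52.5 and 54.6 FPKM with control siRNA. Both KLF11 siRNA libraries were lower, but they differed from each other and the gene did not pass (log2 change -0.45, adjusted p = 0.0916, limma). Without KLF11 siRNA replicate 2 it did (adjusted p = 0.00979, limma), in a fit whose spread comes from the control pair alone, as it does for every gene wherever a KLF11 siRNA library is left out. IRF3 shares 14.4% of its 50-base words with BCL2L12, almost all of them on the opposite strand. IRF7, the interferon-inducible partner of IRF3, was at 4.17 and 5.29 FPKM with KLF11 siRNA and at 8.01 and 6.74 FPKM with control siRNA (adjusted p = 0.0564, limma), and passed with TPM scaling (adjusted p = 0.0438, limma). IRF1, a factor induced by interferon gamma, was at 2.99 and 2.33 FPKM with KLF11 siRNA and 2.21 and 1.82 FPKM with control siRNA (adjusted p = 0.306, limma).

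Effectors that act on RNA, nucleotides or translation gave 1 rise and 0 falls among 6 tested genes of 12 listed. These were 16.7% and 0% of the tested, against 13.5% and 21.7% of all tested genes. IFIT3, a tetratricopeptide protein of the family that binds foreign RNA, was at 2.18 and 2.08 FPKM with KLF11 siRNA and at 0.39 and 0.30 FPKM with control siRNA. The groups did not overlap, and the mean was 6.17-fold higher (log2 change 1.22, SE 0.20, adjusted p = 0.0111, limma). IFIT3 reached the filter only through the group in which it was high, as did IFIT1 and IFI27 through the controls, so their place among the tested genes is not independent of their difference. IFIT1, which binds the cap of foreign RNA, was at 0.87 and 0.72 FPKM with KLF11 siRNA and at 1.93 and 1.59 FPKM with control siRNA (log2 change -0.62, adjusted p = 0.0641, limma), and passed when eBayes was run without a trend (adjusted p = 0.0287, limma). IFIT2 was under the filter, at 0.55 and 0.99 FPKM with KLF11 siRNA and 0.39 and 0.31 FPKM with control siRNA, and IFIT5 overlapped between the groups, at 2.52 and 2.37 FPKM with KLF11 siRNA and 1.86 and 3.11 FPKM with control siRNA. The 4 IFIT genes lie beside one another on chromosome 10, with 1 other coding gene among them in the RefSeq order. In the KLF11 siRNA libraries IFIT3 was higher and IFIT1 lower than in either control library.

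EIF2AK2, the gene of the RNA-activated kinase PKR that halts translation, was at 15.1 and 16.9 FPKM with KLF11 siRNA and at 19.8 and 20.7 FPKM with control siRNA. The groups did not overlap, but the gene did not pass (log2 change -0.32, SE 0.11, adjusted p = 0.0678, limma). It passed with TPM scaling (adjusted p = 0.0464, limma) and without KLF11 siRNA replicate 2 (adjusted p = 0.0484, limma). ADAR, which edits double-stranded RNA and so keeps the cell's own RNA from the sensors, was at 67.0 and 72.4 FPKM with KLF11 siRNA and at 78.4 and 73.0 FPKM with control siRNA (log2 change -0.12, adjusted p = 0.351, limma). SAMHD1, which breaks down deoxynucleotides, was at 1.77 and 1.51 FPKM with KLF11 siRNA and 1.45 and 1.31 FPKM with control siRNA (adjusted p = 0.568, limma).

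Of the OAS, MX, RSAD2, ISG20 and IFI44 genes, MX1 alone passed the filter. The oligoadenylate synthetases OAS1, OAS2 and OAS3, which activate RNase L, stayed at or under 0.30 FPKM in every library, and OASL, a RIG-I cofactor of the same family, was listed at 0 in 3 libraries and at 0.03 FPKM in KLF11 siRNA replicate 2. None of these 4 genes came near the filter. RSAD2, the gene of viperin, ran from 0.01 to 0.20 FPKM and the exonuclease gene ISG20 from 0.12 to 0.97 FPKM. MX2, a GTPase that blocks the nuclear entry of viral genomes, was at 0.45 and 0.71 FPKM with KLF11 siRNA and 0.94 and 0.70 FPKM with control siRNA. Its relative MX1 was just above the filter, at 1.04 and 1.84 FPKM with KLF11 siRNA and 1.08 and 1.00 FPKM with control siRNA (adjusted p = 0.472, limma). The MX genes are neighbours on chromosome 21, and of the pair MX1 alone was tested. IFI44 and IFI44L, neighbours on chromosome 1 and commonly used to read interferon activity, did not exceed 0.06 and 0.01 FPKM.

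The membrane restriction factors held most of the RNA of the 42 genes. The IFITM proteins sit in plasma and endosomal membranes and hinder the fusion of enveloped viruses. IFITM1, IFITM2 and IFITM3 together made up 84.1% and 83.1% of the summed FPKM of the 42 genes with KLF11 siRNA and 75.7% and 75.7% with control siRNA. IFITM1 was at 811 and 844 FPKM with KLF11 siRNA and at 812 and 808 FPKM with control siRNA, with overlapping groups (log2 change 0.031, SE 0.088, adjusted p = 0.806, limma). IFITM2 was at 102 and 115 FPKM with KLF11 siRNA and at 77.6 and 68.9 FPKM with control siRNA, higher in both KLF11 siRNA libraries (1.48-fold, log2 change 0.56, SE 0.11, adjusted p = 0.017, limma). IFITM3 was at 247 and 291 FPKM with KLF11 siRNA and at 406 and 380 FPKM with control siRNA, lower in both (1.46-fold lower, log2 change -0.55, SE 0.11, adjusted p = 0.0186, limma). The genes are direct neighbours on chromosome 11, in the order IFITM2, IFITM1, IFITM3, and the rise of IFITM2 and the fall of IFITM3 kept their sign in each fit with another scaling. Their transcripts are alike, with 34.1% of the 50-base words of IFITM2, 32% of those of IFITM1 and 17.4% of those of IFITM3 also found on the same strand of another gene. The division of reads among them by RSEM could therefore have moved their levels.

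BST2, whose product tethers budding virions to the cell surface, was at 1.03 and 4.32 FPKM with KLF11 siRNA and at 35.5 and 32.9 FPKM with control siRNA. Both KLF11 siRNA libraries were far below both controls, and replicate 2 was less so. The mean was 2.67 ± 2.33 FPKM against 34.2 ± 1.79 FPKM (SD, n = 2 each), with a log2 change of -3.42 (SE 0.44, adjusted p = 0.00677, limma). Leaving out KLF11 siRNA replicate 1 gave a log2 change of -2.73, and leaving out replicate 2 gave -4.12. No 50-base word of BST2 or of EPSTI1 occurs in another gene's transcripts.

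EPSTI1, first described as a gene induced in epithelial cells by stromal contact and also induced by interferon, showed the same order of libraries. It was at 0.68 and 7.10 FPKM with KLF11 siRNA and at 74.8 and 74.9 FPKM with control siRNA. The mean was 3.89 ± 4.54 FPKM against 74.9 ± 0.0778 FPKM (SD, n = 2 each), with a log2 change of -4.36 (SE 0.71, adjusted p = 0.0112, limma). The fit without KLF11 siRNA replicate 1 gave -3.23 and that without replicate 2 gave -5.50, and the call was lost when no filter on low values was used (adjusted p = 0.0623, limma). In control siRNA libraries EPSTI1 was thus among the more abundant of the 42 genes, near ADAR and IFITM2.

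Epithelial and endoderm markers moved in the same libraries. Of 8 epithelial markers, all tested and none at 0, 7 fell and 0 rose, or 87.5% and 0%, against 21.7% and 13.5% of all tested genes. Of these markers CLDN3, which fell, and CLDN4, which was not called, reached the filter only through the controls, and the summed level of the 8 was 757 and 1035 FPKM with KLF11 siRNA and 2175 and 2001 FPKM with control siRNA. Of 10 pluripotency and endoderm markers, again all tested and none at 0, 4 rose and 4 fell, or 40% each. Their sums were 3161 and 4458 FPKM with KLF11 siRNA against 5585 and 5549 FPKM in control siRNA libraries. CER1, which was not called (adjusted p = 0.0543, limma), makes up most of the control sums, while POU5F1 was 6.71-fold, NANOG 4.005-fold and SOX2 3.18-fold higher in KLF11 siRNA libraries and rose. EOMES also rose (1.23-fold higher). FOXA2 fell, at 4.65 and 12.8 FPKM with KLF11 siRNA and 47.6 and 44.1 FPKM with control siRNA. The other falls were SOX17 (3.94-fold lower), GATA6 (2.99-fold lower) and LIN28A (1.28-fold lower). Of 10 mesenchymal and osteoblast markers, 7 of them tested, 3 rose and 1 fell. These were 42.9% and 14.3% of those tested, against 13.5% and 21.7% of all tested genes. VIM rose, at 808 and 800 FPKM with KLF11 siRNA and 144 and 131 FPKM with control siRNA. THY1 (7.59-fold higher) and CDH11 (22.1-fold higher) also rose, while COL1A1 fell (1.65-fold lower). The sums of the 10 were 1879 and 1875 FPKM with KLF11 siRNA against 1071 and 1016 FPKM in control siRNA libraries. As for BST2 and EPSTI1, the epithelial sum of KLF11 siRNA replicate 2 lay nearer the controls than that of replicate 1. The same order held for 79.1% of all 5400 genes called, so it does not set these genes apart. The part of these markers in the falls of the interferon genes was not tested.

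**Figure D2:**
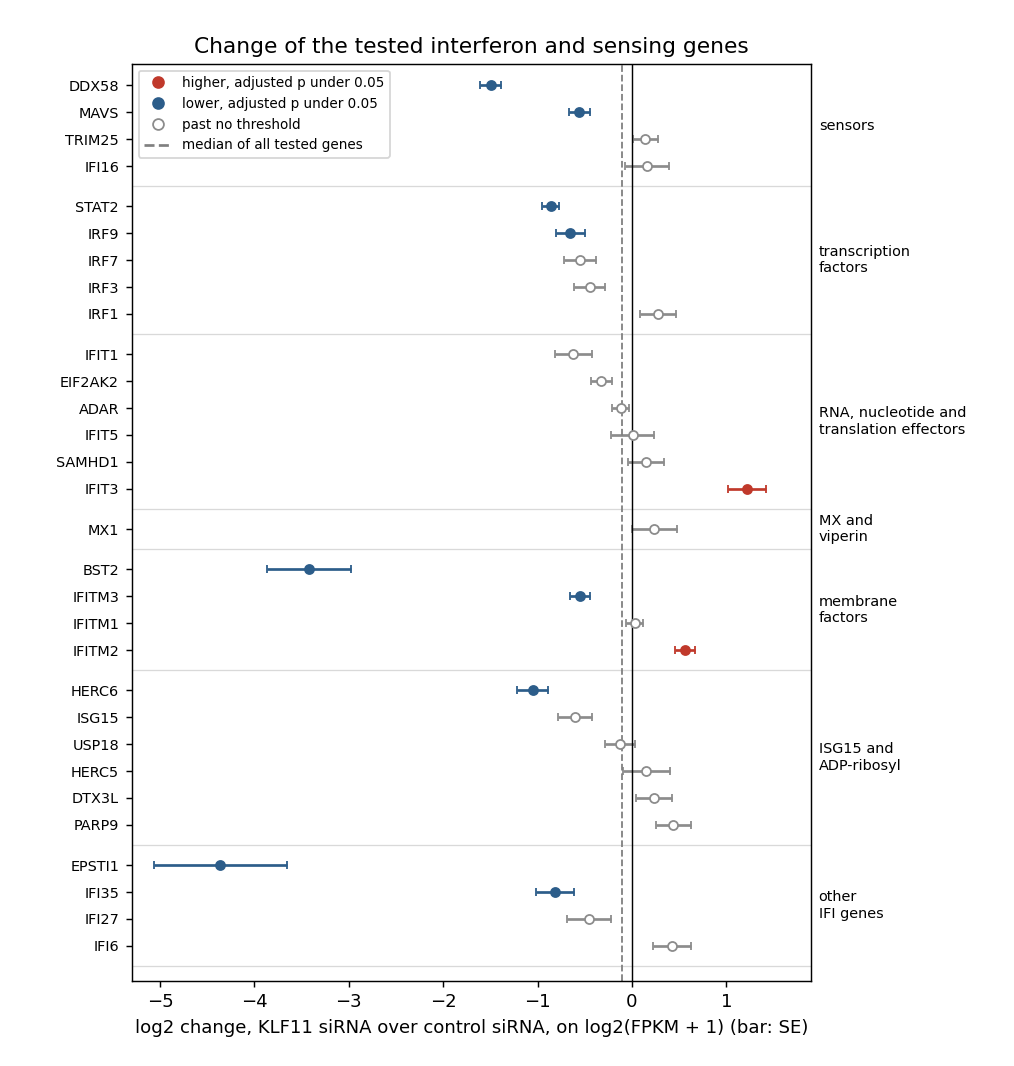
Fitted log2 change of the 30 tested genes, KLF11 siRNA over control siRNA, on the log2(FPKM + 1) scale, with bars of 1 SE. Filled points passed an adjusted p of 0.05 in limma, and the dashed line is the median of all tested genes. EPSTI1 at -4.36 and BST2 at -3.42 stand apart, and IFIT3 and IFITM2 are the rises.

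The ISG15 system attaches a ubiquitin-like protein to other proteins. ISG15 itself was at 11.04 and 15.4 FPKM with KLF11 siRNA and at 22.1 and 18.9 FPKM with control siRNA. The groups did not overlap, but the gene stayed just outside the threshold (log2 change -0.61, SE 0.18, adjusted p = 0.0527, limma). It passed with some other settings, among them TPM scaling (adjusted p = 0.0392, limma) and the fit without KLF11 siRNA replicate 2 (adjusted p = 0.0158, limma), where the control pair alone gives the spread. USP18, which removes ISG15 and damps the interferon receptor, was at 2.93 and 3.15 FPKM with KLF11 siRNA and 3.28 and 3.54 FPKM with control siRNA (adjusted p = 0.555, limma), and 23% of its 50-base words also occur in USP41.

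HERC5, the main human ISG15 ligase, was at 8.56 and 4.91 FPKM with KLF11 siRNA and at 5.65 and 5.86 FPKM with control siRNA, with 1 KLF11 siRNA library above both controls and 1 below both. The fit without KLF11 siRNA replicate 2 gave a log2 change of 0.50 (adjusted p = 0.0479, limma), which rests on 1 KLF11 siRNA library and the spread of the control pair, and that without replicate 1 gave -0.19. Its neighbour HERC6, whose mouse counterpart is a main ISG15 ligase, was at 2.69 and 2.91 FPKM with KLF11 siRNA and at 7.71 and 6.12 FPKM with control siRNA, 2.47-fold lower (log2 change -1.05, SE 0.17, adjusted p = 0.0107, limma). Thus, of these adjacent genes on chromosome 4, a fall was called for HERC6 and no change for HERC5, and their difference was not tested. PARP9, an ADP-ribosyltransferase, was at 1.98 and 1.88 FPKM with KLF11 siRNA and at 1.06 and 1.27 FPKM with control siRNA (adjusted p = 0.124, limma), and passed without a trend (adjusted p = 0.0483, limma). DTX3L, the ubiquitin ligase that PARP9 binds, was at 2.46 and 1.91 FPKM with KLF11 siRNA and at 1.85 and 1.55 FPKM with control siRNA (adjusted p = 0.385, limma). The 2 genes are neighbours on chromosome 3.

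Of the remaining interferon-induced genes, IFI35, whose product interacts with the related protein NMI, fell. It was at 2.41 and 2.66 FPKM with KLF11 siRNA and at 6.21 and 4.36 FPKM with control siRNA (2.08-fold lower, log2 change -0.82, SE 0.20, adjusted p = 0.031, limma), a call lost without KLF11 siRNA replicate 1 (adjusted p = 0.0837, limma). IFI6, a mitochondrial and endoplasmic reticulum protein, was at 2.75 and 2.10 FPKM with KLF11 siRNA and 1.40 and 1.69 FPKM with control siRNA (adjusted p = 0.151, limma). IFI27, among the genes most strongly induced by type I interferon in many tissues, was at 1.16 and 0.72 FPKM with KLF11 siRNA and 1.38 and 1.95 FPKM with control siRNA (adjusted p = 0.181, limma).

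The called genes were compared between the KLF11 siRNA libraries. For 10 of the 11 called genes replicate 2 lay nearer the control mean than replicate 1, against 79.1% of all 5400 genes called. The exception was IFITM2. DDX58, STAT2 and HERC6 lay close to equal change in both libraries, while EPSTI1 and BST2 fell less in replicate 2.

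**Figure D3:**
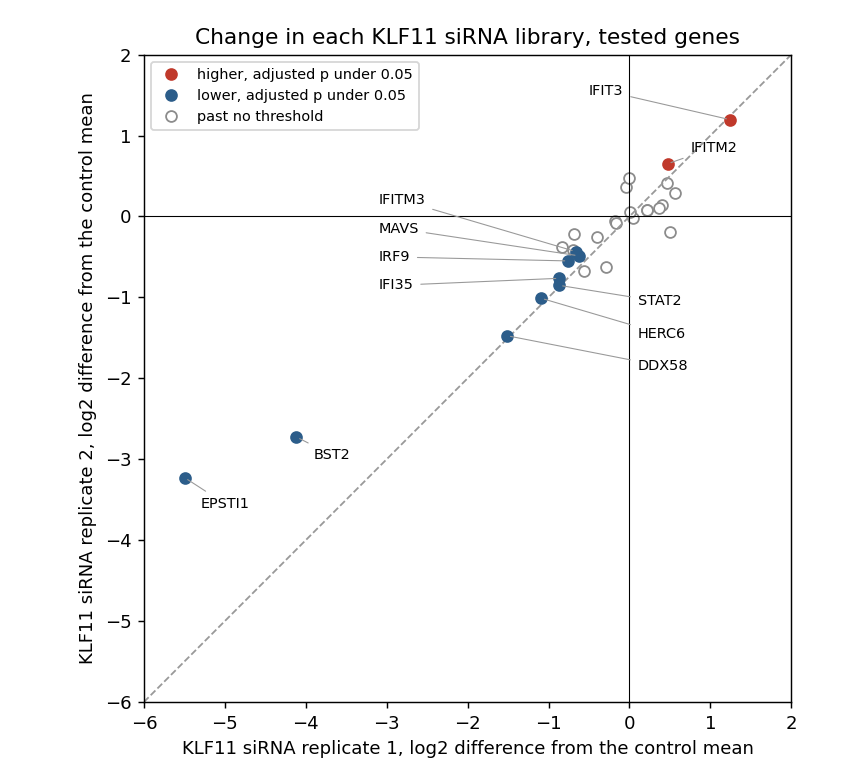
Log2 difference from the control mean, on log2(FPKM + 1), in KLF11 siRNA replicate 1 (horizontal) and replicate 2 (vertical) for the 30 tested genes. The dashed line marks equal change. BST2 and EPSTI1 lie above the line, with a smaller fall in replicate 2, and DDX58 lies close to it.

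By level, 2 of the 42 genes had a mean of 100 FPKM or more over the libraries and 10 had 10 to 100 FPKM, and these 12 held 6 of the 9 falls and 1 of the 2 rises. The 18 genes between 1 and 10 FPKM held 3 falls and 1 rise, and 12 genes were under 1 FPKM. The shares of all genes called in the same level classes were not computed. The split by level is therefore not read as a trait of these genes. Without IFITM1, IFITM2 and IFITM3 the summed level of the other genes was 219 and 254 FPKM with KLF11 siRNA and 415 and 404 FPKM with control siRNA. Much of that gap lay in EPSTI1, with means of 3.89 and 74.9 FPKM in KLF11 and control siRNA libraries, and BST2, with 2.67 and 34.2 FPKM.

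Upstream of these genes, none of the interferon ligand genes looked up was measured above a trace. IFNA1 and IFNA2 were the only interferon alpha genes among them. Of 10 interferon ligand genes, which include IFNB1, IFNL1 and IFNG, 9 were listed at 0 in every library, and IFNE was at 0.03 FPKM in each. The lists of other pathway genes give the setting. Of 13 receptor, JAK-STAT and regulator genes, all tested, 4 fell and 2 rose, that is 30.8% and 15.4%, with a median log2 change of -0.28, against 21.7% and 13.5% of all tested genes and a median of -0.11.

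IFNAR2, a subunit of the type I interferon receptor, was at 6.56 and 6.18 FPKM with KLF11 siRNA and at 12.2 and 15.2 FPKM with control siRNA (2.14-fold lower, adjusted p = 0.0091, limma). The other subunit, IFNAR1, was at 9.97 and 10.0 FPKM with KLF11 siRNA and 8.58 and 10.2 FPKM with control siRNA (adjusted p = 0.618, limma). IFNGR2, a subunit of the interferon gamma receptor, was at 16.4 and 19.8 FPKM with KLF11 siRNA and at 30.9 and 32.0 FPKM with control siRNA (1.74-fold lower, adjusted p = 0.0103, limma). IL10RB and PIAS1 were the other falls, and with median-of-ratios scaling IL10RB (adjusted p = 0.072) and PIAS1 (adjusted p = 0.0583, limma) were no longer called.

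JAK1, the kinase bound to IFNAR2, was at 27.1 and 24.3 FPKM with KLF11 siRNA and at 12.8 and 11.3 FPKM with control siRNA (2.13-fold higher, adjusted p = 0.00541, limma). SOCS1, which inhibits JAK kinases, was at 10.7 and 8.11 FPKM with KLF11 siRNA and at 2.94 and 2.18 FPKM with control siRNA (3.68-fold higher, adjusted p = 0.00665, limma). TYK2, the kinase bound to IFNAR1, did not pass, at 15.6 and 17.4 FPKM with KLF11 siRNA and 18.5 and 18.3 FPKM with control siRNA (adjusted p = 0.303, limma). Messages of the receptor complex and its kinases therefore went both ways.

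Of 19 other sensing and signalling genes 17 were analysed here and 11 tested, of which 2 fell and 0 rose in limma, or 18.2% lower against 21.7% of all tested genes. At an unadjusted p under 0.05, 4 were lower and 2 higher, a cut for which no share of all genes was computed. With median-of-ratios scaling 2 of the 11 rose, against 18% of all tested genes. NLRX1, a mitochondrial protein that binds MAVS, was at 3.56 and 4.65 FPKM with KLF11 siRNA and at 9.71 and 7.59 FPKM with control siRNA (2.11-fold lower, adjusted p = 0.0194, limma). PRKRA, an activator of PKR, was at 22.9 and 21.0 FPKM with KLF11 siRNA and at 33.8 and 34.1 FPKM with control siRNA (adjusted p = 0.0101, limma). TBK1, the kinase that phosphorylates IRF3, was at 11.95 and 10.9 FPKM with KLF11 siRNA and 10.5 and 10.3 FPKM with control siRNA (adjusted p = 0.435, limma). TLR3, the endosomal sensor of double-stranded RNA, and TMEM173, the gene of STING, stayed at or under 0.17 and 0.10 FPKM.

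**Figure D4:**
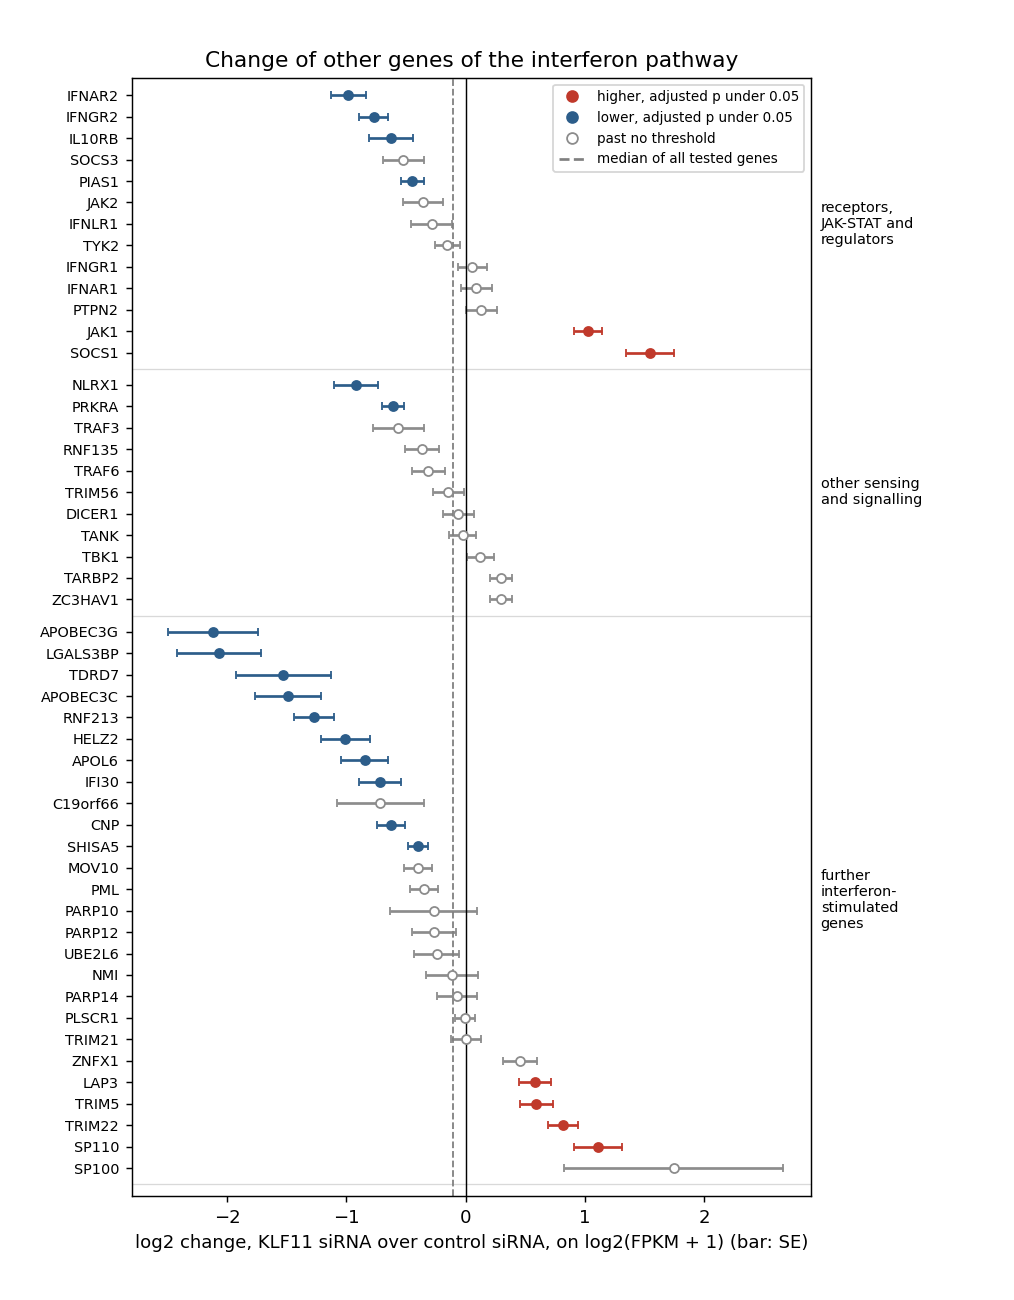
Fitted log2 change of other tested genes of the interferon pathway, KLF11 siRNA over control siRNA, on log2(FPKM + 1), with bars of 1 SE, in 3 lists. Filled points passed an adjusted p of 0.05 in limma. IFNAR2 at -0.99 and IFNGR2 at -0.77 stand at the low end of the first list, and JAK1 and SOCS1 at its high end.

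Of 40 further interferon-stimulated genes 26 were tested, of which 10 fell and 4 rose, or 38.5% and 15.4%, with a median log2 change of -0.31, against 21.7% and 13.5% of all tested genes and a median of -0.11. RNF213, a large ubiquitin ligase, was at 9.72 and 13.5 FPKM with KLF11 siRNA and at 28.4 and 29.9 FPKM with control siRNA (2.51-fold lower, adjusted p = 0.00686, limma). APOBEC3G, a cytidine deaminase that restricts retroviruses, was at 2.75 and 7.48 FPKM with KLF11 siRNA and at 23.8 and 23.3 FPKM with control siRNA (4.60-fold lower, adjusted p = 0.0141, limma). LGALS3BP, a secreted galectin-binding glycoprotein, was at 5.11 and 11.99 FPKM with KLF11 siRNA and at 38.2 and 34.6 FPKM with control siRNA (adjusted p = 0.0126, limma). In all of these falls both KLF11 siRNA libraries lay below both controls, and replicate 2 was the higher of the pair. Leaving out KLF11 siRNA replicate 1 gave log2 changes of -1.53 for APOBEC3G and -1.52 for LGALS3BP, and leaving out replicate 2 gave -2.71 and -2.61. Without the filter neither APOBEC3G (adjusted p = 0.07) nor LGALS3BP (adjusted p = 0.0653, limma) was called. TRIM22, an antiviral ubiquitin ligase, was the rise with the smallest p, at 36.6 and 29.7 FPKM with KLF11 siRNA and at 18.2 and 18.3 FPKM with control siRNA (1.82-fold higher, adjusted p = 0.00988, limma), and TRIM5, SP110 and LAP3 also rose. SP110 reached the filter only through the KLF11 siRNA libraries, where it was high, and APOL6, counted among the falls, only through the controls. CXCL10, a chemokine strongly induced by interferon, was listed at 0 in every library.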

How the data were processed

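The authors deposited FPKM values for each library, with 2 decimals. The tools were RSEM 1.3.1 and Trim Galore 0.5.0 and the build hg19 (GRCh37), per the submitters' processing notes. The sources used here do not give the aligner, annotation release, strand setting or filters. Groups came from sample titles, and 0 columns were left unmatched. The genes and lists were chosen with earlier results of these data known. A mean of at least 1 FPKM over the libraries was required, and limma 3.58.1 (R 4.3.3, lmFit and eBayes with a trend) was run on log2(FPKM + 1), with 2 groups and no block. Per-library values are given for genes past the threshold or with a mean of at least 10 FPKM, up to 4 genes of each other list by p, and others added after their values were seen. Of the listed genes, IKBKE and MB21D1 were not analysed here, and a further pathway gene is not reported here. Promoter windows came from RefSeq (GRCh38.p14), matched by symbol or synonym. The share of 50-base words found in other genes was computed from GENCODE v29 transcripts, whose annotation may differ from the authors'; protein sequences were not used. No permutation test was run, since the exact two-sided p of such a test has a minimum of 0.333 with 2 libraries a group. Alternatives were a pseudocount of 0.1 or 5, no filter on low values or 1 at 5 FPKM, TPM, median-of-ratios and quantile scaling, eBayes without a trend or with robust estimation (statmod 1.5.0), a replicate block, each library left out and a minimum log2 change of 1. Figures were drawn with matplotlib 3.10.9.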

Additional observations from a re-analysis of the deposited data

How the results depend on the processing

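Among the 30 tested interferon and sensing genes the counts of 9 lower and 2 higher stayed between 8 and 12 lower and at 2 or 3 higher with other pseudocounts, TPM, median-of-ratios and quantile scaling, eBayes without a trend or with robust estimation, and the replicate block. Of all 15320 tested genes the same settings gave 2605 to 3699 lower and 1707 to 2757 higher. Without the filter on low values, where 34232 genes share the adjustment, 4 were lower and 1 higher, with a median log2 change of -0.0395 over 42 genes. Of the 34232 genes 1251 were lower and 887 higher, with a median of -0.0265. With a filter of 5 FPKM, which left 16 of the genes, 8 were lower and 1 higher and the median was -0.55. Of all 10441 genes past that filter 2558 were lower and 1704 higher, with a median of -0.0878. With a minimum log2 change of 1, 4 were lower and 1 higher, against 1265 lower and 716 higher of all 15320 tested genes. A fit with a library left out has 1 library in a group. The calls over all 15320 tested genes also shifted in such fits, so the range that follows is not read as a trait of these genes. With libraries left out in turn the lower genes ranged from 0 to 13 and the higher from 0 to 3. The 0 came from leaving out either control library, when the lone library is assumed to vary like the KLF11 siRNA pair and no gene of the table is called.

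For receptors and JAK-STAT genes, 4 lower in the main setting, the count was 2 without the filter, with median-of-ratios scaling, with quantile normalization and with the replicate block, and 0 with a minimum log2 change of 1. Leaving out libraries gave 0 to 5 lower and 0 to 2 higher. For the other sensing genes, 2 lower and 0 higher, it was 1 lower without the filter, 0 lower with a minimum log2 change of 1 and 2 higher with median-of-ratios or quantile scaling; leaving out libraries gave 0 to 3 lower. For further interferon-stimulated genes, 10 lower and 4 higher, it was 1 lower and 2 higher without the filter and 6 lower and 1 higher with a minimum log2 change of 1, and leaving out libraries gave 0 to 11 lower and 0 to 4 higher. The calls over all 15320 tested genes shifted as well when libraries were left out, so those ranges are not read as a trait of these lists. Beyond what fewer samples or another set of tested genes entails, the cause of the shifts in these lists was not tested.

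The replicate numbers share only a number. Deviations of same-numbered libraries from their group means correlated at -0.0711 over tested genes, which are not independent, and the block gave 1707 genes higher and 2644 lower in the whole table, against 2071 and 3329 without it. The read depth is unknown, so the precision of the genes near or under 1 FPKM cannot be given.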
